A study of Mus musculus with 8 samples.

Results

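Head-to-head overlapping genes are neighbours on opposite strands whose 5′ ends run into each other. They were found from the gene models of the count table alone: on any chromosome but the mitochondrial one, a plus-strand gene had to start inside a minus-strand gene and end beyond it, and the exons of both had to share at least 50 bases. The annotation held 1485 such pairs, with 2919 genes between them. A gene's row of the table was described where its mean count over the 8 libraries was at least 5, which kept 1441 rows of the 54146 in the table, and of the 8382 rows that reached this mean. These rows belong to 980 pairs, and in 496 of them both rows passed. The lowest mean count kept was 5.0 and the highest left out was 4.88. Of the 1478 rows left out, 378 had no count in any library.

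The cells were ID8, a mouse ovarian cancer line that grows in immunocompetent mice of its own strain, in a version resistant to olaparib. All 4 groups share this genotype, and the labels do not say whether the resistant line is 1 clone. For 72 hours the cells received DMSO, the solvent control, olaparib, an inhibitor of the DNA repair enzyme PARP, EZM8266, an inhibitor of the histone methyltransferases EHMT1 and EHMT2, or the combination of olaparib and EZM8266, with 2 libraries in each group. The comparisons ask what each treatment changes in resistant cells and whether EZM8266 acts alike with and without olaparib. The labels used here give no dose, 1 library, combination replicate 2, carries the spelling EZM8267 in its treatment label, and nothing says that replicates were separate cultures, so p-values reflect library-to-library spread alone, and that spread may be technical.

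In mammals many protein-coding genes have a second transcript that starts close by on the other strand and runs away from them, often a long noncoding RNA and sometimes the messenger RNA of another coding gene. Such divergent starts usually lie in CpG islands, stretches rich in unmethylated CG dinucleotides, and are bound by factors of the ETS and NRF1 families. Where the first exons overlap, both strands of the same DNA are copied into RNA, so a fragment can be assigned to its gene only from its strand. EHMT1 and EHMT2 place the dimethyl mark on lysine 9 of histone H3, a mark of silent chromatin.

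For these pairs the strand setting decides what a row measures. Per the file headers the fragments were counted with strand setting 1, which keeps a fragment if its first read matches the gene's strand, while in the kit named in the labels the first read comes from the opposite strand. A row therefore counted mainly fragments of transcripts from the strand opposite to its gene, which in a head-to-head pair is the strand of its partner. The counts cover all exons of a row, and the table does not say which of them lie in the bases shared with the partner. In the account below rows are called by their own symbol, and the partner is named beside them. Of the 1441 rows, 274 also overlapped an opposite-strand gene end to end at the 3′ side and 99 also overlapped 1 that lies inside them or around them, so that their counts may come from that gene too. The other 1087 were in no such pair.

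The libraries held between 973382 and 1680974 counts, from 19743299 to 30329847 fragments, of which 4.54% to 5.40% were assigned to a row. A count of 0 allows a level of up to 3 counts, which is 1.78 to 3.08 CPM when scaled to the library total. This limit covers counting error only. The CPM of single rows below are scaled by TMM instead, so they are not on quite the same scale as this limit. Of the counts in the Ccdc107 and Rmrp rows, which both lie over the abundant RNA of Rmrp, the Rmrp row held 1.04% to 1.68%. This share served as the strand leakage covariate, a measure of RNA counted on the wrong strand at this locus. The Ccdc107 row shares only 124 of the 281 bases of the Rmrp row, so the share need not hold elsewhere. Opposite Ftl1, for example, the Gm10252 row had a mean of 12999.6 counts and the Ftl1 row 25.1. The Gm10800 row, a satellite-like repeat, stood at 23746 counts in DMSO replicate 1 and 22517 in olaparib replicate 2, against 1182 to 4277 in the other libraries. In bulk RNA, fewer cells of a type and less RNA per cell cannot be told apart. Rows of epithelial and ovarian surface markers were low, and like all rows they read mainly the other strand. Krt18, Krt19 and Wt1 held 10 to 58 counts, Msln, Muc16 and Upk3b 0 to 9, and Krt7, Epcam and Cdh1 0 or 1. Of the fibroblast genes Col1a1 held 42 to 235, Pdgfra 0 to 2 and Dcn 1 to 4, and the endothelial genes Pecam1 and Cdh5 held 0 to 4. The Krt8 row held 6 to 23 counts, while its head-to-head partner row Gm36026, which reads the strand of Krt8, had a mean of 283. Rows of the leukocyte genes Cd3e and Lyz2 held no count, Ptprc held 0 to 2 and the macrophage gene Cd68 1 to 10. The labels number the EZM8266 and combination samples 33 to 36 and the DMSO and olaparib samples 41 to 44, so that whatever the numbers stand for cannot be told apart from EZM8266.

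The DNA in front of these genes is set out first for 7 coding genes, 6 of them partners of rows that changed with EZM8266 or rows that changed themselves, and Ftl1 from the second most abundant pair. Each stretch is the 150 bases before the RefSeq start of the gene (assembly GRCm38.p6, which is mm10), read 5′ to 3′ on the strand of the gene, with every CpG in capitals. None of them lies in an exon of a coding gene of the count table. They lie at chr15:79028062-79028211 (H1f0, plus strand), chr17:29490635-29490784 (Pim1, plus), chr7:45459887-45460036 (Ftl1, minus), chr2:24475600-24475749 (Pax8, minus), chr2:109674550-109674699 (Bdnf, plus), chr1:88211809-88211958 (Ugt1a1, plus) and chr16:33793887-33794036 (Muc13, plus).
H1f0: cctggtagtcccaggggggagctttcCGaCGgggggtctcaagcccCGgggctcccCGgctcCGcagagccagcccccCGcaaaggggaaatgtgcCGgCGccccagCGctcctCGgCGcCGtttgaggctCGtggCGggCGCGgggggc
Pim1: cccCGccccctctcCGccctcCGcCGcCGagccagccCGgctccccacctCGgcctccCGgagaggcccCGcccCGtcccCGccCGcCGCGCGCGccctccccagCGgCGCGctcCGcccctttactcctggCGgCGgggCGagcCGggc
Ftl1: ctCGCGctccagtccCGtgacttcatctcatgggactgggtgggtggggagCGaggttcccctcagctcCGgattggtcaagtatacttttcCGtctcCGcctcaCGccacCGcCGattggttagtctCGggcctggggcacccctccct
Pax8: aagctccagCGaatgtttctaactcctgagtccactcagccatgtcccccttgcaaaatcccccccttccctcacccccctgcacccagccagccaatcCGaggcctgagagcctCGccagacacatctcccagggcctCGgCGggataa
Bdnf: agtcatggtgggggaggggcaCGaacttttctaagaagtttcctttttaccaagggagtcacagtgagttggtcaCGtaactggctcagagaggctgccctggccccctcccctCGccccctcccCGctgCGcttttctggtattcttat
Ugt1a1: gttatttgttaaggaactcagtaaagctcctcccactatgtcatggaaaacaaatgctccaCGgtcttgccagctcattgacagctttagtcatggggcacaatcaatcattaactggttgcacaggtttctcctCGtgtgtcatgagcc
Muc13: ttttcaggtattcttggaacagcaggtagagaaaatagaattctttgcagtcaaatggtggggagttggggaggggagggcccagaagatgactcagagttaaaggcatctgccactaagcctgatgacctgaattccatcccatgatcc

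These 7 stretches differ widely in CpG content. The stretch of Pim1 held 24 CpGs, that of H1f0 16 and that of Ftl1 11, while those of Pax8 and Bdnf held 5 each, that of Ugt1a1 2 and that of Muc13 0. The H1f0 and Ftl1 stretches lie with all 150 bases in an exon of the noncoding partner, Gm49544 and Gm10252, and the other 5 lie in no exon of a partner. The Ftl1 stretch holds the NF-Y box CCAAT 2 times, read as ATTGG on the strand shown, and the Pax8 stretch holds it 1 time.

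Among all genes of these pairs CpG-rich starts were more frequent than in the promoter table as a whole. RefSeq gave a window from 250 bases before to 50 bases after the start for 1260 of the 1922 genes of the 980 pairs, taken at the start nearest to that of the row. The windows of the pair genes had a median observed over expected CpG ratio of 0.771 and 61.0% G and C, against 0.384 and 52.7% over all 32851 windows. A ratio above 0.6 was found in 73.3% of them and in 35.8% of all. The ETS motif CCGGAAGT, searched on both strands, was in 10.6% of the pair windows and 3.89% of all, and the NRF1 core GCGCATGC in 3.81% and 2.71%. The TATA box TATAAA was in 7.54% against 13.6%, and the interferon response core GAAANNGAA in 5.40% against 8.56%. CCAAT was in 35.95% against 37.4%, and the YY1 core CCATNTT in 16.2% against 16.1%. These shares are descriptions: windows of partners can cover the same DNA, the table of all windows holds several starts for some genes, and a match in letters is not a bound site. The 980 pairs also had to hold a row with a mean count of at least 5, while the 32851 windows passed no such filter. Whether the differences go with the arrangement or with this filter was not tested.

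The pairs differ widely in how much they share. Over the 980 pairs the shared exon sequence ran from 50 to 6222 bases, with a median of 223 and quartiles of 131 and 382. The stretch from the start of the plus gene to the start of the minus gene, introns included, had a median of 558 bases and quartiles of 270 and 1022. In 355 pairs both genes are coding, in 594 pairs 1 gene is coding, and in 31 neither is. By type, 914 of the 1441 rows are coding, 281 antisense RNAs, 83 processed transcripts, 76 transcripts awaiting experimental evidence (TEC), 49 long intergenic noncoding RNAs and 24 noncoding RNAs of bidirectional promoters. The overlap depends on the gene models: of 617 pairs with both genes in the RefSeq annotation, the 5′ ends overlapped there in 417 (67.6%), while in 200 they lay apart, by a median of 171 bases.

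Most pairs were seen on 1 strand. The median row held 30.9 counts, with quartiles of 11.5 and 101. Of the 1441 rows, 361 had a mean of at least 100 counts and 586 a mean under 20. In the 797 pairs whose rows summed to a mean of at least 20 counts, the higher row held a median of 93.7% of the counts of the pair, with quartiles of 83.6% and 97.5%. More than 90% lay in 1 row in 494 of them (62.0%), and only 45 pairs were split between 40% and 60%. Across the 496 pairs with both rows described, the log10 mean counts of partners had a Pearson r of -0.23, as a description, since partners share their libraries and some of their bases. The mean count of a row was only weakly related to its shared length (r of the log10 values 0.09 over 1441 rows).

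Which row was the higher one followed the type of gene. Of 475 pairs of a coding and another gene, the row of the other gene, which reads the strand of the coding gene, held more counts in 418 (88.0%), and more counts per kilobase of exon in 433 (91.2%). Taken in each library on its own, the share by count lay between 86.7% and 88.0%, with no group set apart. In tail-to-tail pairs, whose 3′ ends overlap, the row of the other gene was higher in 93.5% of 307 pairs, and in nested pairs in 82.8% of 668. The counts of tail-to-tail and nested pairs were about as lopsided, with medians of 93.1% and 95.5% in the higher row. These are descriptions of annotated sets that differ in gene content, since both genes were coding in 37.8% of the head-to-head, 64.2% of the tail-to-tail and 10.6% of the nested pairs of that depth.

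**Figure D1:**
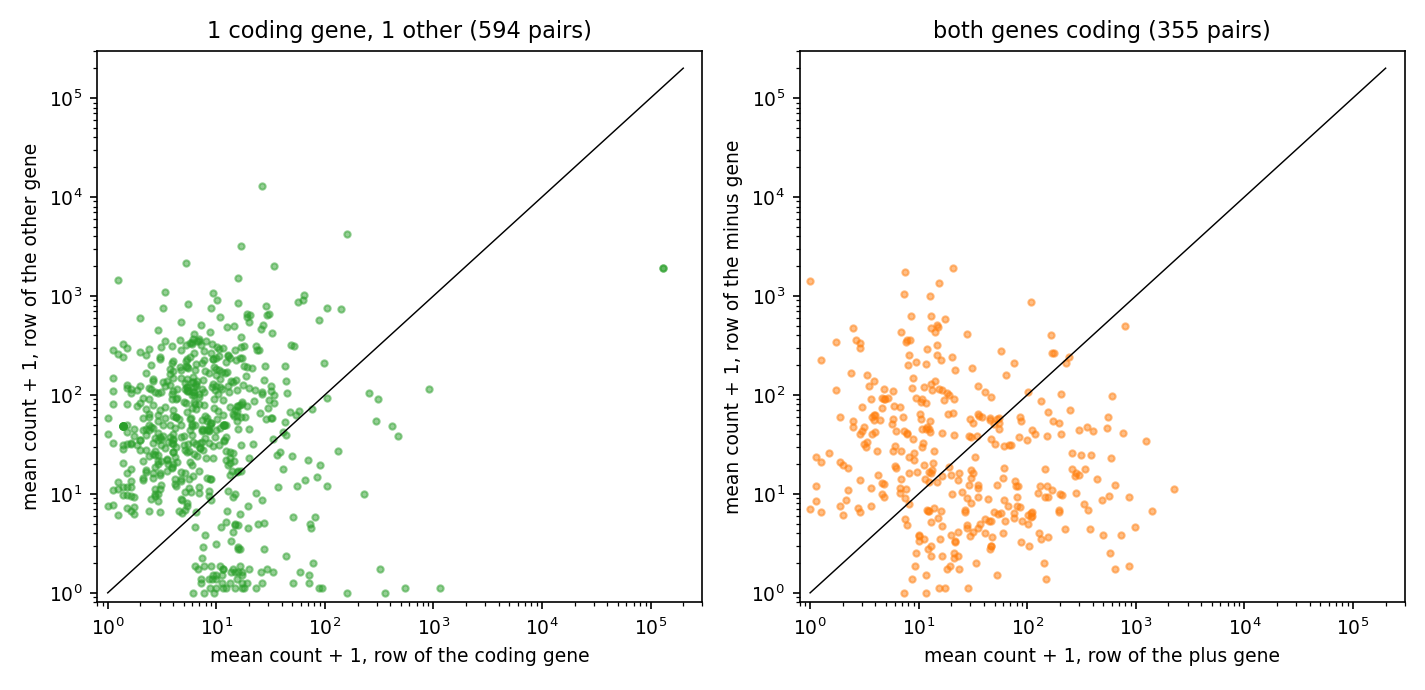
Mean count over 8 libraries, plus 1, on log axes, with 1 point for each head-to-head pair: the row of the noncoding gene against the row of the coding gene in the 594 pairs with 1 coding gene (left), and the minus against the plus row in the 355 pairs of coding genes (right). Most points on the left lie above the line of equal counts, those on the right lie on both sides, and the pair at the far right is Ccdc107 with Rmrp.

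The most abundant pair was Ccdc107 and Rmrp on chromosome 4. Rmrp is the RNA of the RNase MRP ribonucleoprotein, which processes ribosomal RNA, and it is transcribed by RNA polymerase III. Its transcript is read by the row of the coding gene Ccdc107 (chr4:43492900-43495921), with which it shares 124 bases. That row held 124714 and 194016 counts with DMSO, 162754 and 101373 under olaparib, 158294 and 85234 under EZM8266 and 129810 and 89482 in the combination. The spread within groups was as wide as that between them. The Rmrp row itself held 899 to 3314 counts. The annotation lists Rmrp under 2 identifiers with nearly the same exons, and both rows carried the same counts to within 2, so they are not independent. The row of Ccdc107 alone held 8.39% to 12.2% of all counts of a library.

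In the next most abundant pairs a noncoding row stands opposite an abundant messenger RNA. The Gm10252 row (chr7:45459469-45460300), opposite Ftl1, the light chain of the iron store ferritin, held 11394 to 15844 counts against 12 to 44 in the Ftl1 row. The Gm26518 row (chr15:102455526-102483722), opposite the RNA-binding protein gene Pcbp2, held 3567 to 5134, and the Gm41396 row, opposite the alpha-tubulin gene Tuba1b, held 2535 to 4057. None of these rows was called, with log2 changes under the mean EZM8266 effect of 0.11 ± 0.11 (SE), 0.04 ± 0.10 and 0.03 ± 0.10. Libraries with and without EZM8266 overlapped in each of them.

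In 4 more pairs the high row also overlaps another gene, and its counts cannot be laid to the head-to-head partner. The Gm20628 row, with a mean of 6355 counts, shares 257 bases with Gm42743, but 488 with the histone H3 gene Hist2h3b and 381 with the histone H2B gene Hist2h2bb. The Mettl23 row, with a mean of 2233, shares 172 bases with Jmjd6, a dioxygenase gene, and 460 with Srsf2, a splicing factor gene that lies inside it. The Gm26582 row, with a mean of 2146, shares 166 bases with the kinase gene Cdkl2 and 2050 with G3bp2, whose protein binds RNA in stress granules. The Eme1 row, with a mean of 1335, shares 75 bases with the mitochondrial ribosome gene Mrpl27 and 221 with Lrrc59.

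A few pairs had many counts in both rows. Slirp, a regulator of mitochondrial RNA, and Alkbh1, a nucleic acid demethylase, share 122 bases on chromosome 12. The Slirp row held 679 to 1046 counts and the Alkbh1 row 428 to 604. Trmt112, a partner of RNA methyltransferases, and Prdx5, a peroxiredoxin, share 409 bases on chromosome 19, and their rows held 171 to 354 and 188 to 317 counts. In another arrangement the Slirp row shares 2914 of its 3104 exon bases with Snw1, and the Trmt112 row shares 73 with Esrra. The counts of the Slirp row therefore cannot be laid to Alkbh1. The log2 changes of these 4 rows under the mean EZM8266 effect lay between -0.13 ± 0.11 (SE, the Trmt112 row) and 0.10 ± 0.09 (the Prdx5 row), and none was called.

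As a share of all counts, the head-to-head rows took 26.6% and 24.98% with DMSO and 22.5% and 23.7% with olaparib. The EZM8266 libraries gave 26.7% and 25.04%, those of the combination 25.2% and 24.7%. The olaparib libraries were the lowest pair, and the other groups overlapped. Without the row of Ccdc107 the shares were 12.4% to 16.3%. The 4 libraries with EZM8266 averaged 25.4% and the 4 without 24.4%, a difference of 0.979 percentage points with p = 0.371 in a two-sided exact permutation test over 70 arrangements, whose smallest possible p is 0.0286.

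Olaparib on its own changed no head-to-head row at an adjusted p under 0.05 in edgeR's quasi-likelihood test with Benjamini-Hochberg adjustment over all 6379 tested rows, of which 0% were called. Of the 1441 rows, 1243 passed the filter on low counts and were tested. Their smallest adjusted p against DMSO was 0.9991, 16 of them (1.29%) had an unadjusted p under 0.05 against 117 (1.83%) of all tested rows, and DESeq2 also called none. The median log2 change was 0.02, against -0.01 over all tested rows. With 2 libraries a group the median standard error of a log2 change was 0.29 over the 1243 rows. It was 0.16 over the 361 deepest (mean count 100 or more). Changes well beyond 1 standard error could go uncalled. In the combination against DMSO, for example, the Pax8 row at 2.87 ± 0.56 had an edgeR adjusted p of 0.0703.

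EZM8266 changed few rows. In the mean effect, which sets the 4 libraries with EZM8266 against the 4 without, 9 of the 1243 head-to-head rows were called (0.724%), 8 higher and 1 lower, against 0.658% of all tested rows. This split depended on the fit: it was 13 higher and 9 lower with strand leakage as a covariate, 10 and 5 without a low-count filter, and 5 and 2 in DESeq2. Against DMSO, EZM8266 alone raised 3 rows and lowered none (0.241%), while 0.204% of all tested rows were called. The combination raised 1 row against DMSO and lowered none (0.0805%), beside 0.219% of all. With the leakage covariate these became 8 higher and 4 lower, and 7 higher and 5 lower. Against olaparib it raised 1 and lowered 1 (0.161%), beside 0.0941% of all. These shares are near those of the whole table. Without the 2 libraries rich in Gm10800, DMSO replicate 1 and olaparib replicate 2, 4 of the 9 rows of the mean effect were called (Gm43434, Pax8, Fars2 and Gm49544), and 1, 1 and 0 rows in the other comparisons. At an unadjusted p under 0.05 there were 87 rows of the 1243 in the mean effect (6.999%, against 6.77% of all tested rows) and 65 for EZM8266 against DMSO (5.23% against 5.72%). The combination gave 64 against DMSO (5.15% against 4.89%) and 55 against olaparib (4.42% against 3.81%), so these shares were near the background too.

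The largest rise in the mean effect was in the row of Gm43434 (chr14:54128298-54146287, minus strand), an antisense RNA that shares 96 bases with Trdc, which encodes the constant part of the delta chain in gamma-delta T cells. The row held 6.86 and 6.18 CPM with DMSO, 7.36 and 4.07 under olaparib, 36.3 and 59.7 under EZM8266 and 50.4 and 56.5 in the combination. All 4 libraries with EZM8266 were above the 4 without. The log2 change was 3.02 ± 0.27 (SE) in the mean effect, with an edgeR adjusted p of 7.12e-05, and it was called in the 3 other comparisons with EZM8266 too. EZM8266 against DMSO gave 2.86 ± 0.38 (adjusted p = 0.0051). The combination gave 3.03 ± 0.38 against DMSO (0.00316) and 3.19 ± 0.39 against olaparib (0.00219). The comparisons with DMSO share its libraries. The calls against DMSO were lost without DMSO replicate 2, with adjusted p of 0.121 and 0.0567, and the last call without olaparib replicate 2 (0.0555). EZM8266 against DMSO also lost its call in the fit of only the 2 groups (edgeR adjusted p = 0.100). Without both libraries rich in Gm10800, this call and that of the combination against olaparib were lost, at log2 changes of 2.92 and 2.83. The Trdc row held a mean of 1.5 counts. The T-cell marker row Cd3e held no count, but like the others it reads the opposite strand.

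The row of Pax8 (chr2:24420560-24475599, minus strand), a transcription factor gene used as a marker of ovarian and other Müllerian epithelia, shares 367 bases with the noncoding gene Gm13415. It held 2.94 and 3.09 CPM with DMSO, 2.94 and 7.32 under olaparib, 28.8 and 46.7 under EZM8266 and 18.1 and 27.3 in the combination. The libraries with EZM8266 did not overlap with those without, and the counts behind them were 3 to 9 without and 18 to 47 with. The mean effect was 2.86 ± 0.37 on the log2 scale (adjusted p = 0.00223). EZM8266 against DMSO gave 3.58 ± 0.52 (0.0109), a call that was lost without either DMSO library (0.0884 for replicate 1, 0.15 for replicate 2) and without EZM8266 replicate 2 (0.089), with log2 changes of 3.20 to 3.62. The same call was lost in the fit of only the 2 groups (edgeR adjusted p = 0.0874). It was lost as well without both libraries rich in Gm10800, at a log2 change of 3.56. The Gm13415 row, which reads the strand of Pax8 itself, had a mean of 0.75 counts. Whether the counts of the Pax8 row come from Gm13415 or from other RNA of that strand was not tested.

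The row of Bdnf (chr2:109674700-109727007, plus strand), the gene of brain-derived neurotrophic factor, which has many first exons, shares 896 bases with the noncoding gene Gm45346. It held 4.90 and 4.94 CPM with DMSO, 5.89 and 8.94 under olaparib, 15.9 and 22.9 under EZM8266 and 15.1 and 23.4 in the combination. Libraries with EZM8266 were above all those without, at 15 to 24 counts against 5 to 11. The mean effect was 1.66 ± 0.34 (adjusted p = 0.0472), which was lost in DESeq2 (0.0854) and when any library but EZM8266 replicate 1 was left out (up to 0.291). The Gm45346 row had a mean of 0.375 counts.

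The row of Gm27177 (chr14:69582164-69683286, minus strand) was high with EZM8266 alone. This antisense gene shares 301 bases with the start of Loxl2, a lysyl oxidase that crosslinks collagen, and 1700 bases with the 3′ end of Entpd4b, a nucleotidase gene. The row held 5.88 and 12.97 CPM with DMSO, 19.1 and 20.3 under olaparib, 113 and 75.6 under EZM8266 and 20.1 and 23.4 in the combination. Libraries of the combination lay close to those of olaparib. EZM8266 against DMSO gave a log2 change of 3.23 ± 0.33 (adjusted p = 0.000637), the combination against olaparib 0.14 ± 0.36 (adjusted p = 1.0), and the mean effect 1.69 ± 0.25 (0.00559).

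The difference between these 2 effects in the Gm27177 row, a comparison added after its values were seen, was -3.09 ± 0.49 on the log2 scale with an edgeR adjusted p of 0.196 over all tested rows, of which 0% were called. It passed in DESeq2 (0.0145), with a filter of 1 CPM (0.0142), with strand leakage as a covariate (0.000627), with no filter (7.07e-06) and without EZM8266 replicate 2 (0.0446). Over its other alternatives the adjusted p was 0.0864 to 1.0. At an unadjusted p under 0.05 this difference was seen in 20 of the 1243 head-to-head rows (1.61%) and 103 of all tested rows (1.61%), the same share.

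The row of Gm49544 (chr15:79026456-79028612, minus strand) was the deepest of those that rose. It shares 163 bases with H1f0, the linker histone of resting and differentiated cells, whose CpG-rich upstream stretch is printed above. It held 586 and 497 CPM with DMSO, 553 and 622 under olaparib, 760 and 1090 under EZM8266 and 868 and 1012 in the combination. The lowest library with EZM8266 was above the highest without. The mean effect was 0.73 ± 0.12 (adjusted p = 0.0115), a call that was lost without olaparib replicate 1 (0.0557). The H1f0 row held 28 to 94 counts and stood at 0.50 ± 0.30 without passing (adjusted p = 0.855).

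The rows opposite Pim1, Muc13 and the Ugt1a cluster also rose. The Gm26885 row (chr17:29461896-29491925), which shares 468 bases with Pim1, a kinase induced by cytokines, held 108 and 115 CPM with DMSO, 141 and 135 under olaparib, 174 and 188 under EZM8266 and 178 and 178 in the combination. The 4 libraries with EZM8266 lay above the rest, and olaparib lay between DMSO and EZM8266. This gave a mean effect of 0.53 ± 0.10 (adjusted p = 0.0222).

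The Gm20528 row (chr1:88055393-88218584) shares 922 bases with Ugt1a1, which conjugates bilirubin, 394 with each of 7 other genes of the cluster and 534 with Ugt1a10. It held 26.4 and 24.7 CPM with DMSO, 34.6 and 27.6 under olaparib, 51.4 and 53.7 under EZM8266 and 56.4 and 51.7 in the combination. Again no library with EZM8266 overlapped with those without. This gave a mean effect of 0.92 ± 0.17 (adjusted p = 0.0222). These pairs are counted among the 980 but share the Gm20528 row, so they are not independent.

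The Gm15657 row (chr16:33770430-33796874) shares 184 bases with the start of Muc13, a membrane mucin whose upstream stretch holds no CpG, and 318 bases with the 3′ end of Heg1, a membrane protein of endothelial cells. It held 177 and 174 CPM with DMSO, 185 and 170 under olaparib, 244 and 263 under EZM8266 and 259 and 270 in the combination. The groups with and without EZM8266 were each tight and did not overlap. This gave a mean effect of 0.55 ± 0.09 (adjusted p = 0.0127). The Gm26885 and Gm20528 calls were lost in DESeq2 (0.0773 and 0.0796). Each of the 3 was lost when some single library was left out, with adjusted p of up to 0.159 (Gm26885), 0.137 (Gm20528) and 0.105 (Gm15657). For Gm26885 and Gm20528 these were both DMSO, both olaparib and both combination libraries, and for Gm15657 the same libraries without olaparib replicate 1.

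The row of Fars2 (chr13:36117412-36726280, plus strand), the mitochondrial phenylalanine tRNA synthetase, was the 1 called row that fell. It held 592 and 609 CPM with DMSO, 703 and 613 under olaparib, 434 and 421 under EZM8266 and 403 and 393 in the combination. Every library with EZM8266 was below every library without. The mean effect was -0.61 ± 0.08 (adjusted p = 0.00375). The combination against olaparib gave -0.73 ± 0.12 (0.0396), a call lost with 6 of the 8 single libraries left out, namely DMSO, olaparib and combination replicates 1 and 2 (0.0652 to 0.687). It was also lost with RLE scaling (0.051), a filter of 1 CPM (0.0772), a filter of a mean count of 5 (0.0611) and the replicate block (0.0872). Its 5′ end shares 115 bases with Lyrm4, a factor of iron-sulfur cluster assembly, and its 3′ end shares 501 bases with Nrn1, a neuritin gene, so that the counts may come from either. The Lyrm4 row had a mean of 0.75 counts and the Nrn1 row of 6.25.

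**Figure D2:**
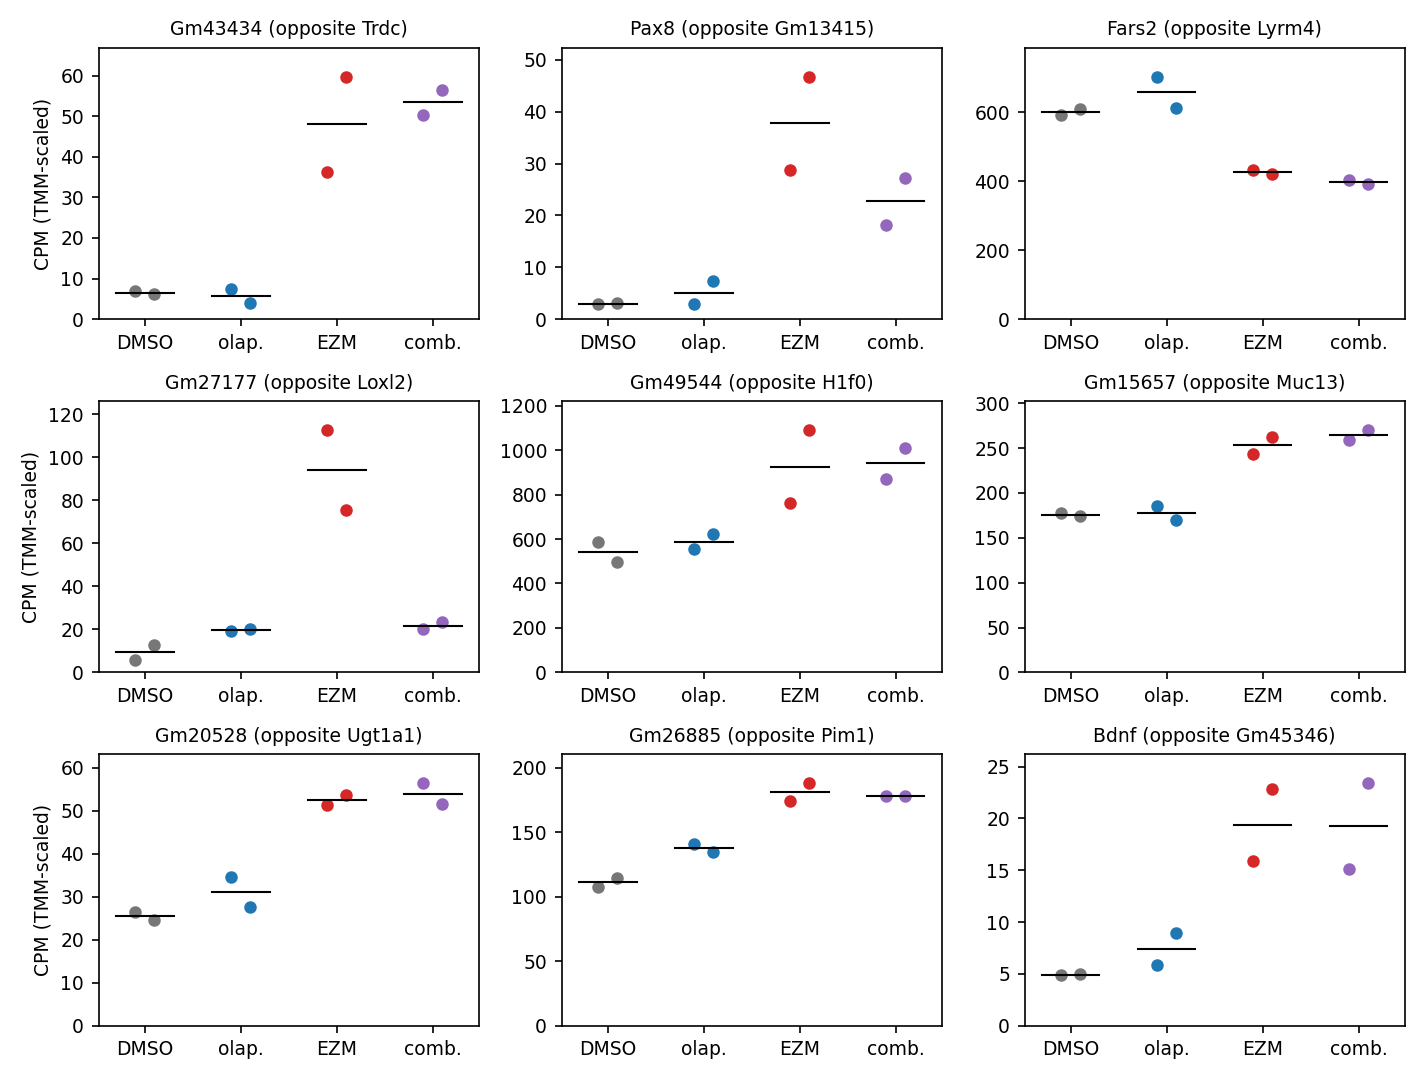
CPM, scaled by TMM, in each of the 8 libraries (points) with the mean of each group (lines) for the 9 head-to-head rows called in the mean EZM8266 effect, each on its own axis from 0 and with its head-to-head partner in parentheses. The libraries with EZM8266 and the combination lie above those with DMSO and olaparib in 7 rows and below them in Fars2, while in Gm27177 the combination lies beside olaparib.

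Rows whose groups do not overlap were counted without a test. All 4 libraries with EZM8266 were above the 4 without in 37 of the 1243 head-to-head rows (2.98%), against 3.32% of all tested rows, and all below in 30 (2.41%), against 2.02%. Among those with a mean of at least 20 counts that did not pass the test were 6330403L08Rik, opposite the growth factor gene Pdgfa, at 0.70 ± 0.16 (SE) on the log2 scale (edgeR adjusted p = 0.086), and D430036J16Rik, opposite the serotonin receptor gene Htr1b, at 0.60 ± 0.13 (0.0658). The first held 53 to 102 counts without EZM8266 and 83 to 121 with it, and its libraries separate on the CPM scale: 43.1 to 76.4 against 83.6 to 114. The Pdgfa row, which shares 813 bases with it, stood at 0.49 with an adjusted p of 0.204. Lower values without a call were seen in 4833422C13Rik, which shares 149 bases with Acot12, a thioesterase, and also overlaps Ssbp2 (-1.07 ± 0.28, adjusted p = 0.178), in 8030451A03Rik, opposite the matrix protein gene Tnc (-0.99 ± 0.26, 0.185), and in Gm48236, opposite the aryl hydrocarbon receptor gene Ahr (-0.47 ± 0.16, 0.472).

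Gene groups were described by their head-to-head pairs. The median over the tested rows pools the rows of listed genes with those of their partners. Of 44 genes of the interferon response, 7 were in 5 such pairs, and 7 rows of these pairs were tested. None was called in any comparison. Over all tested rows 0% to 0.658% were called in a comparison, so lists of this size would hold few calls or none at that share. Their median log2 change in the mean EZM8266 effect was 0.40, against -0.02 over all tested rows. Over the 5 tested rows opposite a listed gene, which read mainly its strand, the median was 0.43, and 5 were above 0. Some of these rows held few counts, such as Gm20496, with 5 to 11. That row shares 165 bases with Tap2 but 186 with the 3′ end of Psmb8. The pair best measured in both rows is Parp9, a macrodomain protein, with Dtx3l, its ubiquitin ligase partner, which share 458 bases on chromosome 16. The Parp9 row held 39.2 and 27.2 CPM with DMSO, 36.05 and 42.3 under olaparib, 44.6 and 52.7 under EZM8266 and 55.4 and 58.5 in the combination. The 4 libraries with EZM8266 were the highest, but by a small step, and the mean effect of 0.56 ± 0.17 had an edgeR adjusted p of 0.332. The Dtx3l row stood at 0.40 ± 0.19 (0.76), with overlapping libraries. The Gm26637 row, opposite the double-stranded RNA sensor gene Eif2ak2, held 119 to 214 counts and stood at 0.02 ± 0.11. The Trim14 row, which reads the strand of its partner Gm16731, held 97 to 424 counts and was -0.21 ± 0.31. The Gm16731 row, opposite Trim14, held 5 to 13 counts (0.43 ± 0.42). The Gm26637 row also overlaps Sult6b1 and the Gm16731 row Coro2a, and the Trim14 row shares 1356 bases with Nans.

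DNA repair and replication genes were in 19 pairs, with 27 tested rows and a median mean effect of -0.01. None was called, beside at most 0.658% of all tested rows in a comparison. Over the 16 tested rows opposite a listed gene the median was 0.04. The Ap4m1 row, which shares 321 bases with the helicase gene Mcm7 and 1185 with Taf6, held 497 to 720 counts (0.03 ± 0.09). The row of Rnaseh2a, a ribonuclease gene that removes RNA from DNA, held 417 to 700 (-0.04 ± 0.08). The Rmi1 row held 588 to 1043 (-0.01 ± 0.08). These rows read mainly the strands of their partners, Prdx2 and the RNA-binding protein gene Hnrnpk. Opposite Rnaseh2a, the Prdx2 row held 11 to 20 counts (-0.01 ± 0.31), and it also overlaps Junb. Opposite Rmi1, the Hnrnpk row held 15 to 63 (-0.42 ± 0.24) and was not called. Cell cycle genes were in 8 pairs with 11 tested rows and none called, with a median of 0.11. Over the 5 rows opposite a listed gene it was also 0.11. The deepest of their named rows was Trmt13, opposite the centriole gene Sass6, at 154 to 245 counts (0.11 ± 0.09). This row shares 389 bases with Sass6 but 820 with the 3′ end of Lrrc39, so its counts may come from either.

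Chromatin genes were in 23 pairs with 37 tested rows and a median of -0.13 (-0.10 over the 18 rows opposite a listed gene). None was called, beside at most 0.658% of all tested rows in a comparison. The linker histone gene H1f0, whose partner row Gm49544 was called in the mean effect, is not in this list. The Ino80dos row, opposite the remodeller gene Ino80d, held 397 to 629 counts (0.02 ± 0.09), and the P2rx3 row, opposite the histone chaperone gene Ssrp1, 67 to 162 (-0.24 ± 0.13, adjusted p = 0.84). Mitochondrial genes were in 36 pairs with 49 tested rows and a median of -0.04 (-0.01 over the 30 rows opposite a listed gene). Genes of RNA processing and translation were in 29 pairs with 41 tested rows and a median of -0.06 (-0.05 over 22 such rows). Each of the last 2 groups had 1 call in the mean effect and in the combination against olaparib, which in all cases was Fars2. The Tomm6os row, opposite the import pore gene Tomm6, held 768 to 1045 counts (0.11 ± 0.10). The Ino80dos row shares 431 bases with Ino80d and 489 with Ndufs1, and the Tomm6os row 219 with Tomm6 and 1221 with Prickle4. The Mfsd11 row, opposite Srsf2, held 969 to 1567 (0.08 ± 0.10), and the Gm11508 row, opposite the splicing factor gene Srsf1, 797 to 1330 (adjusted p = 0.998).

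Partners of a pair had loosely related changes. In 348 pairs both rows were tested, and the mean EZM8266 effect had the same sign in both rows in 187 (53.7%), with a Pearson r of 0.31 as a description, since partners share libraries and bases. Without the pair of Gm10715 and Gm26870, repeat-like genes whose rows were high in the same DMSO and olaparib libraries as Gm10800, r was 0.11 over 347 pairs. The Gm26870 row held 2128 counts in DMSO replicate 1 and 1393 in olaparib replicate 2, against 36 to 109 in the other 6 libraries. In the 43 pairs with a mean of at least 50 counts in both rows, 26 (60.5%) had the same sign, and r was 0.57. At this depth r was not computed without repeat-like rows, so it cannot be set beside the 0.11. H1f0 and Gm49544, 6330403L08Rik and Pdgfa, and Parp9 and Dtx3l lay at the upper end of these 43 pairs. In tail-to-tail pairs of any depth r was 0.10 over 536 pairs, with the same sign in 56.3%. In nested pairs it was 0.56 over 373, with the same sign in 49.9%. At 50 counts or more in both rows r was 0.17 and 0.90, with the same sign in 56.5% and 51.6%. For these 2 kinds of pairs r was not computed without repeat-like rows, so it cannot be set beside the 0.11 of the head-to-head pairs. In the separate comparisons the same sign was seen in 49.7% of the 348 head-to-head pairs for EZM8266 against DMSO and in 48.0% for the combination against olaparib.

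EZM8266 was measured in 2 comparisons that share no library, against DMSO and, on top of olaparib, against olaparib. Over the 1243 rows the log2 changes had the same sign in 693 (55.8%), with r = 0.31, or 0.26 over 1241 rows without Gm10715 and Gm26870. For all tested rows, repeat-like ones included, the share was 57.3% and r was 0.29. For the 361 rows averaging 100 counts or more it was 60.1%, and r was 0.73 with the Gm26870 row and 0.41 without it. All tested rows of that depth gave 60.9% and r = 0.67. That r includes Gm26870 and was not computed without it, so it stands beside the 0.73 and not the 0.41.

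**Figure D3:**
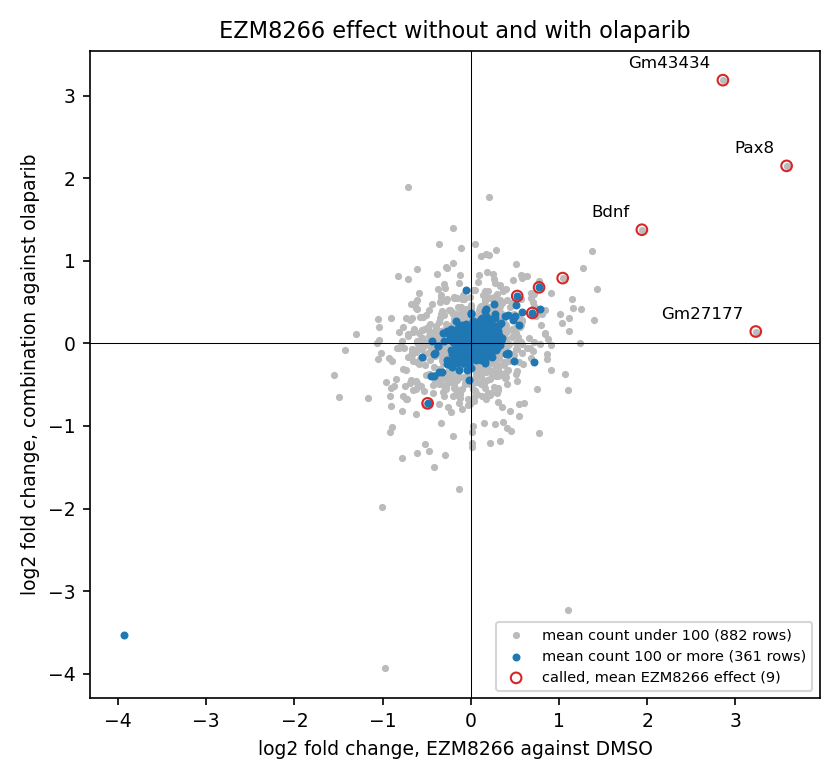
Log2 fold change of EZM8266 against DMSO (x axis) and of the combination against olaparib (y axis) for the 1243 tested head-to-head rows, with 361 rows of at least 100 counts in blue, the others in grey and the 9 rows called in the mean effect circled. Most rows lie near 0 on both axes, Gm43434, Pax8 and Bdnf lie high on both, Gm27177 on the x axis only, and the blue point at the lower left is Gm26870, which was high in 1 DMSO and 1 olaparib library.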

How the data were processed

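RNA sequencing was carried out on 8 libraries of olaparib-resistant ID8 cells, 2 for each of 4 treatments, as ribosome-depleted total RNA read in pairs of 150 bases, per the labels' protocols. The authors deposited raw counts, 1 row a gene. The tools named are HISAT2 2.1.0, Subread 1.6.2, FastQC 0.11.8 and MultiQC 1.7, with build mm10, per the submitters' processing notes. featureCounts counted pairs over exons of GENCODE M18 with strand setting 1, and overlapping genes could each count the same fragment, per the file headers. The share of fragments assigned comes from the deposited summary of counts.

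Groups were taken from the sample titles. Symbols and gene types came from GENCODE M21, which named 54079 of the 54146 rows. Pairs were built from the merged exons of each row. The test was edgeR 4.0.16 (R 4.3.3), quasi-likelihood, with TMM scaling, filterByExpr (minimum count 10, minimum total 15) and all 8 libraries in 1 fit, checked on simulated data. Calls needed an adjusted p (Benjamini-Hochberg, all tested rows) under 0.05. CPM values of single rows are scaled by TMM, and the limit for a count of 0 by the library total. The alternatives were DESeq2 1.42.0, other scaling, filters and pair rules, strand leakage as a covariate, a replicate block, fits of 2 groups and left-out libraries. The interaction was added after seeing the data.

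Rows were named by set rules. These took the 8 most abundant pairs and up to 8 rows of each direction called in a comparison. They also took up to 6 rows in each direction with the largest mean effect and no overlap between groups. The rest were up to 4 pairs of each of 6 gene lists, and the 4 pairs whose lower row had the highest mean count. Rows of Gm26870, Gm10715, Gm20634, Gm36026, Krt8, H1f0, Pdgfa, Lyrm4, Trdc, Nrn1, Gm13415, Gm45346 and Gm10800 were added after their values were seen. The members and lists were chosen with earlier results of these data known. Promoter windows came from RefSeq (GRCm38.p6). No strand-corrected count was used here.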

Additional observations from a re-analysis of the deposited data

How the results depend on the processing

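No result changed its direction under any alternative tried. For the count of head-to-head rows called (main values 0 for olaparib against DMSO, 3 for EZM8266 and 1 for the combination against DMSO, 2 for the combination against olaparib, 9 for the mean effect and 0 for the interaction), the strand leakage covariate gave 12, 12, 6, 22 and 1 from the second comparison on, and no filter on low counts gave 1, 6, 5, 7, 15 and 2. For olaparib the 1 row called without a filter was Gm26870, and the 2 of the interaction were Gm27177 and Gm20634. DESeq2 gave 3 (combination, DMSO) and 1 (interaction), and a filter of 1 CPM gave 3 (combination, DMSO), 1 (combination, olaparib) and 1 (interaction). RLE scaling and a filter of a mean of 5 each gave 1 for the combination against olaparib. Fits of only the 2 groups gave 1 for EZM8266 and 4 for the combination against DMSO. A minimum of 200 shared bases gave 0 for both comparisons of the combination and 5 for the mean effect, by construction from fewer rows. Without DMSO replicate 1 and olaparib replicate 2, the libraries rich in Gm10800, the counts were 1 (EZM8266, DMSO), 0 (combination, olaparib) and 4 for the mean effect. Where no cause is named, the cause was not tested.

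Leaving out 1 library at a time gave 0 for olaparib, against DMSO 1 to 4 for EZM8266 (1 without DMSO replicate 2) and 0 to 4 for the combination (0 without DMSO replicate 2, 2 to 4 without olaparib replicate 2 or either EZM8266 library), 0 to 3 for the combination against olaparib (0 without olaparib replicate 2, 1 without any other library of DMSO, olaparib or the combination), 5 to 15 for the mean effect (15 without EZM8266 replicate 1, 5 without DMSO replicate 1 or any olaparib or combination library) and 0 to 1 for the interaction. The difference in the share of counts between libraries with and without EZM8266 was 0.327 to 1.69 percentage points. A group left with 1 library is assumed to vary like the others.

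With the replicate number as a replicate block the calls were 0, 3, 2, 1, 9 and 0, and all 9 rows of the mean effect remained. Deviations of same-numbered libraries correlated at -0.315 to -0.147 between DMSO and the other groups. Among olaparib, EZM8266 and the combination they correlated at 0.218 to 0.293. Whether the numbers pair the samples cannot be told from these values. Of 53 results for 17 single rows over all alternatives, 797 values kept their side of the threshold, 55 lost a call and 31 gained one. Depth limits the rows with few counts: 586 of the 1441 have a mean under 20.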
